A study of Mus musculus with 2 samples.

Results

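These 10 genes of regulatory T cell identity and costimulation are described: the transcription factors Foxp3 and Ikzf2, the IL-2 receptor chain Il2ra, the costimulatory receptors Tnfrsf18, Tnfrsf4, Tnfrsf9 and Icos, the ligand Tnfsf9, and the cytokine genes Il10 and Ebi3. They were taken by symbol, and each of the 10 symbols names 1 of the 55357 rows in both count files. The data are 2 single-cell RNA libraries of mouse colon, 1 from the genotype labelled RUNX3 ko (titled KO) and 1 from the genotype labelled RUNX3 wt (titled WT). The series text speaks of RUNX3-/- mice and tumour models made to study NK cell infiltration in colorectal cancer. The sources used here do not give the age, sex, strain or number of the mice, whether these colons held a tumour, or which stretch of Runx3 was deleted. With 1 library per group there is no replicate check, so differences carry no test and every interval is a 95% interval that covers counting error only.

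Regulatory T cells are CD4 T cells that restrain other immune cells, and the gut holds many of them. FOXP3 is the transcription factor that defines them, IKZF2 (Helios) is a zinc finger factor that stabilises their programme, and a high level of the IL-2 receptor alpha chain lets them take up IL-2. GITR (Tnfrsf18), OX40 (Tnfrsf4) and the product of Tnfrsf9 are receptors of the TNF receptor superfamily that signal through TRAF adaptors to NF-kappaB after binding ligands on antigen-presenting cells. Tnfsf9 encodes the ligand of the Tnfrsf9 product, and ICOS is a receptor of the CD28 family. IL-10 is an anti-inflammatory cytokine made by regulatory T cells and by macrophages, and EBI3 is the shared chain of the cytokines IL-27 and IL-35.

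After filtering, 5194 cells remained in the library labelled KO and 8343 in the WT library, with medians of 9350.5 (KO) and 8281 (WT) unique molecular identifiers (UMIs, the counted transcript molecules) per cell. Runx3 transcripts persisted in the library labelled KO, at 192 CPM over all kept cells (CPM being UMIs scaled to 1000000 per group of cells), against 255 CPM in the WT library, and whether these counts cover the deleted part was not tested. The library labelled KO held 1250 cells with Y-linked transcripts alone, 2840 with Xist alone and 419 with both, whereas the WT library held 6629, 1 and 2. Cells of both sexes were therefore present in the library labelled KO. Values by sex call are given beside some, not all, of the library differences whose side of the threshold they change. A difference printed without them is not thereby shown to hold within a sex call. The libraries shared 17 cell barcodes.

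Regulatory T cells were gated as cells with at least 3 of 6 T cell markers, more T marker UMIs than UMIs of 7 macrophage genes, at least 1 Foxp3 UMI and no UMI of Cd8a, Cd8b1 or Trdc. The gate held 87 cells in the library labelled KO and 112 in the WT library, with medians of 4062 (KO) and 3890.5 (WT) UMIs. They made up 18.2% of the 479 T cells in the library labelled KO (interval 14.8 to 21.9%) and 9.75% of the 1149 T cells in the WT library (8.09 to 11.6%). Counted over all kept cells the shares were 1.68% (1.34 to 2.06%) and 1.34% (1.11 to 1.61%), and these intervals overlap. The T cell denominator differed mainly in CD8 T cells, of which there were 170 in the library labelled KO and 665 in the WT library, so the share among T cells cannot be read apart from that count. Per 100 CD8 T cells the gate held 51.2 (KO) and 16.8 (WT) cells. Per 100 conventional CD4 T cells the direction was the opposite, at 107 (KO) and 144 (WT). No interval was computed for these values. By sex call, the share of T cells was 20.6% in cells of the library labelled KO that were male-type and 14.7% in those that were female-type, and 10.1% in male-type WT cells.

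The identity of the gated cells was read from genes that the gate did not use. Ctla4, a checkpoint receptor of regulatory T cells, stood at 2041 CPM in the library labelled KO and 2308 CPM in the WT library, against 1025 (KO) and 982 (WT) CPM in conventional CD4 T cells, which were gated by Cd4 without Foxp3. Izumo1r, the folate receptor family gene found on regulatory T cells, stood at 264 (KO) and 327 (WT) CPM, against 58.3 (KO) and 104 (WT) CPM in conventional CD4 T cells. Ikzf4, a partner of FOXP3, stood at 76.1 (KO) and 165 (WT) CPM, against 23.7 (KO) and 36.5 (WT) CPM. Tigit, at 126 (KO) and 115 (WT) CPM against 73.4 (KO) and 52.1 (WT) CPM, was apart from conventional CD4 T cells in the WT library only, and the intervals of Ccr8 overlapped in both. Gpr83 had 0 UMIs in both, which allows up to 5.71 CPM in the library labelled KO and 5.37 CPM in the WT library. A UMI of Cd4 was found in 53 of the 87 gated KO cells and 43 of the 112 gated WT cells.

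Macrophage RNA reached the T cell barcodes. All 11 of 11 macrophage markers were found in the gated regulatory T cells, with a summed level of 1170 CPM in the library labelled KO and 1925 CPM in the WT library and a median of 4 UMIs per cell in both. In macrophages the same list summed to 15665 CPM in the library labelled KO and 21381 CPM in the WT library. A further 55 barcodes in the library labelled KO and 77 in the WT library met the Foxp3, Cd8 and Trdc terms of the gate but carried at least as many macrophage as T marker UMIs. They made up, of the 142 (KO) and 189 (WT) barcodes that met those terms, 38.7% (KO) and 40.7% (WT), and were kept as a group of their own.

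Foxp3 (ENSMUSG00000039521, chromosome X, 7573644 to 7595245, plus strand, mm10) defined the gate, so its level there is a description. It had 436 CPM in the library labelled KO (381 to 496) and 444 CPM in the WT library (390 to 503). The level per gated cell was alike in both libraries, and 27 of 87 KO and 39 of 112 WT cells had a single Foxp3 UMI. Outside T cells Foxp3 was near absent, with 7 UMIs among 3414 macrophages of the library labelled KO and 12 UMIs among 5205 macrophages of the WT library. NK cells, mature dendritic cells and fibroblasts had 0 Foxp3 UMIs in both libraries, which allows at most 6.42 CPM in the NK cells of the library labelled KO, the shallowest of these sums. Of all Foxp3 UMIs, 46.3% in the library labelled KO and 45.3% in the WT library lay in the gated regulatory T cells, and 40.6% (KO) and 40.3% (WT) in T cell barcodes with macrophage RNA.

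**Figure D1:**
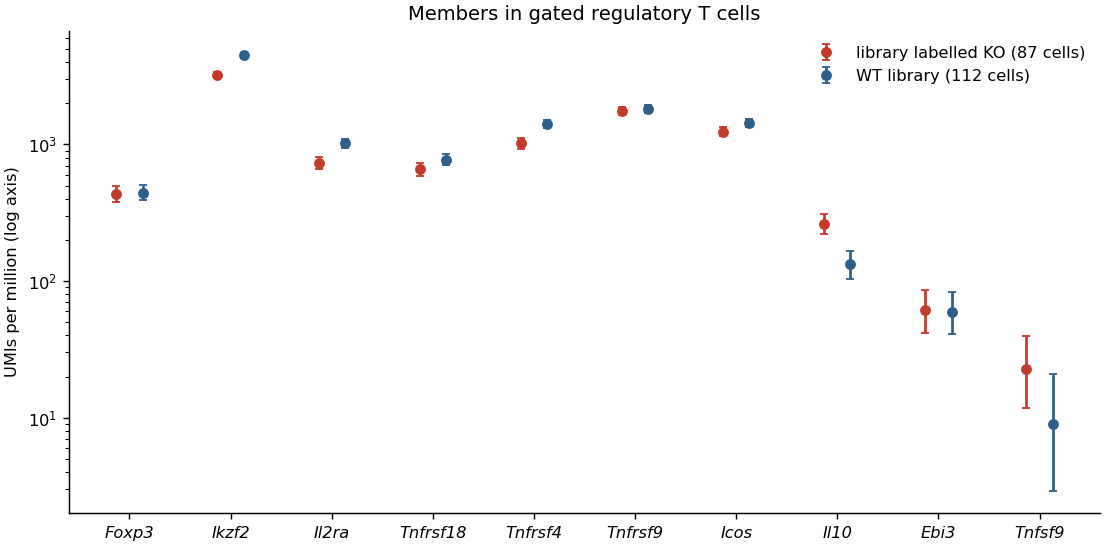
Level of the 10 members in gated regulatory T cells, in CPM on a log axis, with the library labelled KO (87 cells) left of the WT library (112 cells). Points are UMI sums per library and bars are exact Poisson intervals for counting error. The intervals are apart for Ikzf2, Il2ra, Tnfrsf4 and Il10, where Il10 is the one that is higher in the library labelled KO.

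Ikzf2 (ENSMUSG00000025997, chromosome 1, 69531214 to 69687245, minus strand) had its highest level in regulatory T cells in both libraries, at 3243 CPM in the library labelled KO (3091 to 3401) and 4472 CPM in the WT library (4298 to 4651). A UMI was present in 85 of 87 KO and 111 of 112 WT cells. The remaining T cells, 120 (KO) and 229 (WT) cells whose Cd4, Cd8, Trdc and Foxp3 UMIs put them in none of the named T cell groups, came next at 1275 (KO) and 1713 (WT) CPM. The other lymphocytes followed, with gamma delta T cells at 971 (KO) and 970 (WT) CPM, conventional CD4 T cells at 747 (KO) and 1161 (WT) CPM, CD8 T cells at 601 (KO) and 739 (WT) CPM and NK cells at 336 (KO) and 312 (WT) CPM. The intervals of gamma delta and conventional CD4 T cells overlapped in both libraries, and all other neighbours among the lymphocytes were apart. Myeloid cells had little Ikzf2, at 8.49 (KO) and 13.5 (WT) CPM in macrophages, 28.0 (KO) and 42.3 (WT) CPM in dendritic cells and 8.07 (KO) and 19.1 (WT) CPM in mature dendritic cells.

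Il2ra (ENSMUSG00000026770, chromosome 2, 11642807 to 11693193, plus strand) was also highest in regulatory T cells, at 729 CPM in the library labelled KO (657 to 805) and 1016 CPM in the WT library (935 to 1104). In the library labelled KO gamma delta T cells came next at 506 CPM, then the remaining T cells at 340 CPM and conventional CD4 T cells at 281 CPM, whose intervals overlapped. In the WT library conventional CD4 T cells at 411 CPM, the remaining T cells at 321 CPM and gamma delta T cells at 247 CPM overlapped from neighbour to neighbour. Mature dendritic cells, which carry Ccr7 and related migration genes, held more Il2ra than NK cells did, at 172 (KO) and 148 (WT) CPM against 34.2 (KO) and 52.2 (WT) CPM. Macrophages had 7.02 (KO) and 4.95 (WT) CPM.

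The promoter windows of Il2ra and Tnfrsf9 are shown because they are the windows among those of the members that hold a match to a core RUNX motif, the binding sequence of the factor deleted in this study. They run from 250 bases before to 50 after an annotated start, on the plus strand of GRCm38.p6 as given by RefSeq, at chr2:11642542-11642841 for Il2ra and chr4:150927749-150928048 for the downstream start of Tnfrsf9. Capitals mark the matches, which are TGCGGT on the other strand in Il2ra, and an NF-kappaB motif (3 G, 2 bases of any kind, 3 T, 2 C) followed by TGTGGT on the printed strand in Tnfrsf9.
Il2ra: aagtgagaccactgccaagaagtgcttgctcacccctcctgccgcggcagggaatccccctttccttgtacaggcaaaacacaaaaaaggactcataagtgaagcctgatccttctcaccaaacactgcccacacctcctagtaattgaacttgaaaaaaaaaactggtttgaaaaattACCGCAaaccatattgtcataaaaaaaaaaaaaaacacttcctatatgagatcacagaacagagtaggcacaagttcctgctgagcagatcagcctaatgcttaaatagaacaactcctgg
Tnfrsf9: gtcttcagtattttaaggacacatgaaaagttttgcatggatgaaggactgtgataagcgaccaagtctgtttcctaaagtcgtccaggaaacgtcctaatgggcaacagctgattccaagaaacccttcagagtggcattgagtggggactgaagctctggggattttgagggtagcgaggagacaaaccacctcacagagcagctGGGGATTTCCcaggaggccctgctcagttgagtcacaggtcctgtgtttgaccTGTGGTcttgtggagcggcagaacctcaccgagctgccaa
The table held 8 start sites of 6 members (Foxp3, Il2ra, Ebi3, Tnfrsf18, Tnfrsf4 and Tnfrsf9). The RUNX core TGTGGT, its variant form TGCGGT and the NF-kappaB motif were searched on both strands, and the matches do not overlap. Of 32851 promoter windows in the table, 16.8% held TGTGGT, 6.45% TGCGGT and 1.63% the NF-kappaB motif. A match describes letters in the window and no binding was measured.

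The costimulatory receptors of the TNF receptor superfamily were highest in regulatory T cells in both libraries, with different steps down to the other cells. Tnfrsf18 and Tnfrsf4 lie close to each other on chromosome 4 (ENSMUSG00000041954, 156026164 to 156028895, and ENSMUSG00000029075, 156013843 to 156016612, both plus strand), and Tnfrsf9 lies on the same chromosome (ENSMUSG00000028965, 150914562 to 150946102, plus strand). Tnfrsf18 had 656 CPM in regulatory T cells of the library labelled KO (589 to 729) and 775 CPM in those of the WT library (704 to 851). It fell off gradually over conventional CD4 T cells at 313 (KO) and 393 (WT) CPM, CD8 T cells at 197 (KO) and 223 (WT) CPM and NK cells at 101 (KO) and 136 (WT) CPM, and macrophages held 3.04 (KO) and 5.48 (WT) CPM.

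Tnfrsf4 had 1016 CPM in regulatory T cells of the library labelled KO (931 to 1106) and 1414 CPM in those of the WT library (1317 to 1516). Conventional CD4 T cells held 516 (KO) and 596 (WT) CPM and CD8 T cells 151 (KO) and 205 (WT) CPM. NK cells had 1 UMI in each library, in contrast to the other receptors of the family, and macrophages had 1.78 (KO) and 1.93 (WT) CPM. The remaining T cells held 392 (KO) and 425 (WT) CPM. Mature dendritic cells carried 78.4 (KO) and 72.2 (WT) CPM.

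Tnfrsf9 was the most widely spread of the receptors. Regulatory T cells had 1756 CPM in the library labelled KO (1644 to 1873) and 1814 CPM in the WT library (1704 to 1930), followed by CD8 T cells at 969 (KO) and 1227 (WT) CPM. NK cells had 785 (KO) and 827 (WT) CPM and conventional CD4 T cells 583 (KO) and 943 (WT) CPM, in the opposite order in the WT library, where their intervals overlapped. The remaining T cells had 750 (KO) and 950 (WT) CPM, overlapping NK cells in the library labelled KO and conventional CD4 T cells in the WT library. Gamma delta T cells had 506 (KO) and 388 (WT) CPM and mature dendritic cells 442 (KO) and 344 (WT) CPM. Macrophages had 81.5 (KO) and 89.4 (WT) CPM, and since they were the most numerous cells they held 32.6% of all Tnfrsf9 UMIs in the library labelled KO and 25.4% in the WT library. In fibroblasts, which are not known for this receptor, Tnfrsf9 stood at 10.6 (KO) and 13.5 (WT) CPM, with a UMI in 13.1% (KO) and 12.4% (WT) of cells at medians of 18418 (KO) and 14427 (WT) UMIs. The macrophages had a UMI in 21.7% (KO) and 24.0% (WT) of cells at medians of 10413 (KO) and 9218 (WT) UMIs.

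Icos (ENSMUSG00000026009, chromosome 1, 60977927 to 61000320, plus strand) separated lymphocytes from myeloid cells but regulatory T cells least from their nearest relatives. Its level was 1240 CPM in regulatory T cells of the library labelled KO (1147 to 1339) and 1432 CPM in those of the WT library (1334 to 1534), against 915 (KO) and 1177 (WT) CPM in conventional CD4 T cells and 982 (KO) and 889 (WT) CPM in the remaining T cells. CD8 T cells had 370 (KO) and 356 (WT) CPM and NK cells 145 (KO) and 158 (WT) CPM. Macrophages had 1.03 (KO) and 1.52 (WT) CPM.

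**Figure D2:**
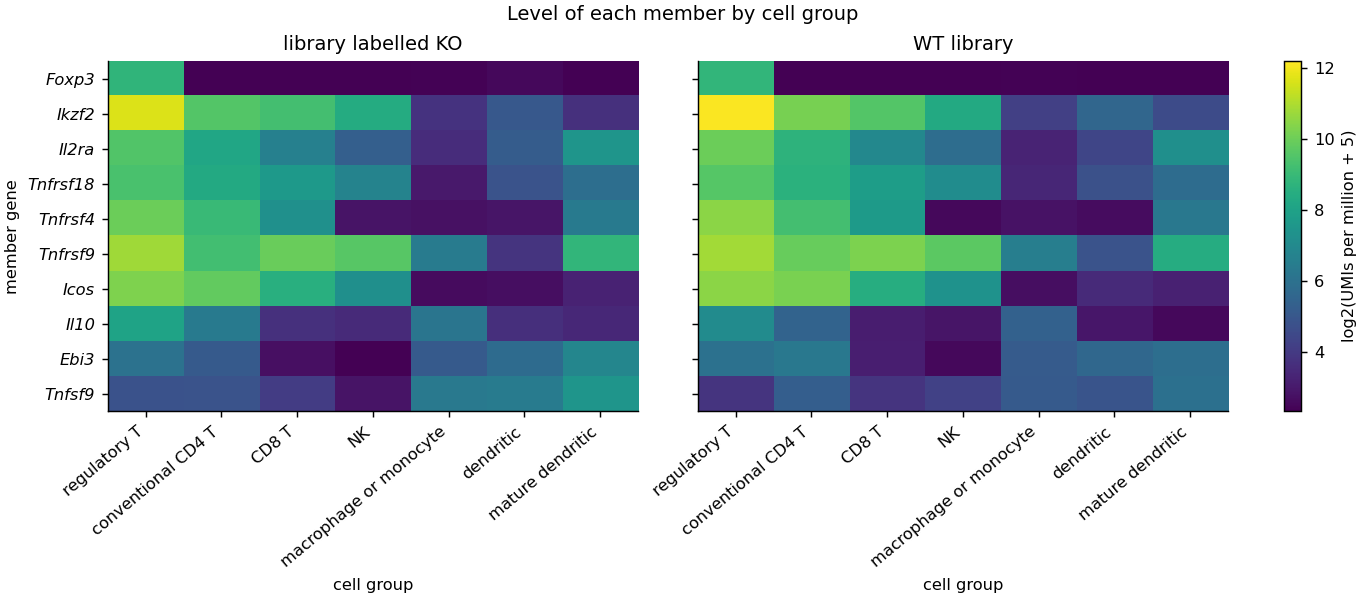
Level of each member by cell group, as log2 of CPM plus 5, with the library labelled KO on the left and the WT library on the right. Rows are genes and columns are gated cell groups. The receptor rows and Ikzf2 are brightest in regulatory T cells and lower in macrophages and dendritic cells, and the Tnfsf9 row is brightest in mature dendritic cells in both panels.

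The 5 receptor genes Il2ra, Tnfrsf18, Tnfrsf4, Tnfrsf9 and Icos were found together in single regulatory T cells. At full depth, 85 of 87 cells of the library labelled KO (97.7%, 91.9 to 99.7%) and 112 of 112 WT cells carried a UMI of at least 3 of the 5. After each cell was thinned to 1000 UMIs the shares were 72.4% in the library labelled KO (61.8 to 81.5%) and 70.5% in the WT library (61.2 to 78.8%). Conventional CD4 T cells thinned in the same way reached 21.2% in the library labelled KO (12.9 to 31.8%) and 37.2% in the WT library (26.5 to 48.9%). CD8 T cells reached 8.88% (KO) and 14.5% (WT), and NK cells 0 of 54 KO and 1 of 189 WT cells. Regulatory T cells therefore stood apart from the 3 other lymphocyte groups at equal depth in both libraries, beyond counting error. Thinning dropped 1 conventional CD4 T cell and 1 CD8 T cell of the library labelled KO, and 4 CD8 T cells and 1 NK cell of the WT library, all under that depth.

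**Figure D3:**
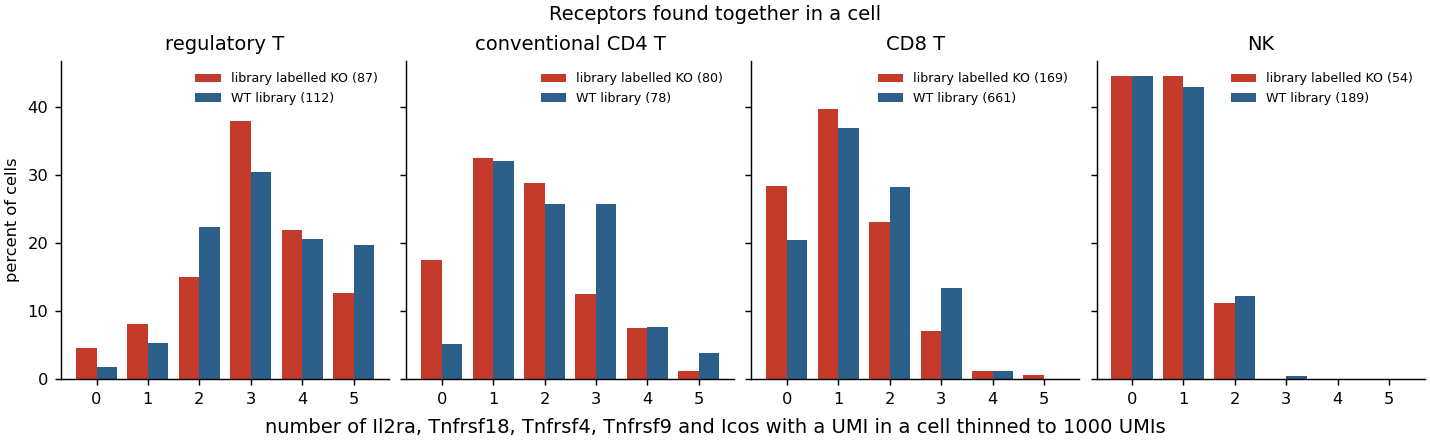
Percent of cells by the number of the 5 receptor genes with a UMI, after thinning each cell to 1000 UMIs, in 4 lymphocyte groups, with the library labelled KO left of the WT library and the number of cells in the legends. Regulatory T cells peak at 3 receptors and NK cells at 0 and 1 in both libraries.

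Il10 (ENSMUSG00000016529, chromosome 1, 131019845 to 131024974, plus strand) reached its highest level in regulatory T cells, at 263 CPM in the library labelled KO (221 to 310) and 132 CPM in the WT library (104 to 166). Conventional CD4 T cells followed at 79.9 (KO) and 39.1 (WT) CPM and macrophages at 67.5 (KO) and 36.6 (WT) CPM, and the remaining T cells had 66.9 (KO) and 24.8 (WT) CPM. The intervals of conventional CD4 T cells and macrophages overlapped in each library. CD8 T cells, NK cells and both dendritic groups stayed at 7.84 CPM or less, which is close to the 4.46 (KO) and 3.31 (WT) CPM of fibroblasts. Most Il10 molecules nevertheless lay in macrophages, 77.7% in the library labelled KO and 74.5% in the WT library, against 4.10% (KO) and 2.94% (WT) in regulatory T cells.

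Ebi3 (ENSMUSG00000003206, chromosome 17, 55952640 to 55957022, plus strand) was not highest in regulatory T cells in either library, though it stood above CD8 T cells, at 1.57 (KO) and 3.99 (WT) CPM. Regulatory T cells had 60.9 CPM in the library labelled KO (41.6 to 85.9) and 59.1 CPM in the WT library (40.6 to 82.9). The highest group was mature dendritic cells in the library labelled KO, at 109 CPM, and conventional CD4 T cells in the WT library, at 72.9 CPM, where the intervals of the 4 highest groups overlapped from neighbour to neighbour. Macrophages, at 29.7 (KO) and 31.0 (WT) CPM, held 73.2% (KO) and 75.4% (WT) of all Ebi3 UMIs. The partner chains were scarce in regulatory T cells, with 0 UMIs of Il12a in both libraries and 0 (KO) and 1 (WT) UMIs of Il27.

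Tnfsf9 (ENSMUSG00000035678, chromosome 17, 57105325 to 57107757, plus strand) lay on the side of the antigen-presenting cells. Mature dendritic cells had 171 CPM in the library labelled KO (144 to 200) and 57.4 CPM in the WT library (44.4 to 73.0). Dendritic cells had 81.0 (KO) and 24.4 (WT) CPM and macrophages 74.5 (KO) and 29.5 (WT) CPM. In the WT library mature dendritic cells overlapped with conventional CD4 T cells, at 33.9 CPM, and the levels below these overlapped from neighbour to neighbour, whereas in the library labelled KO the 3 antigen-presenting groups stood above all lymphocytes. Regulatory T cells had 12 UMIs in the library labelled KO and 5 in the WT library, or 22.8 (KO) and 8.95 (WT) CPM, which was no higher than the 17.5 CPM (13.0 to 22.99) and 26.5 CPM (21.2 to 32.6) of fibroblasts beyond counting error. The WT macrophage level also overlapped that of WT fibroblasts, and a UMI was found in 25.4% of fibroblasts in each library.

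**Figure D4:**
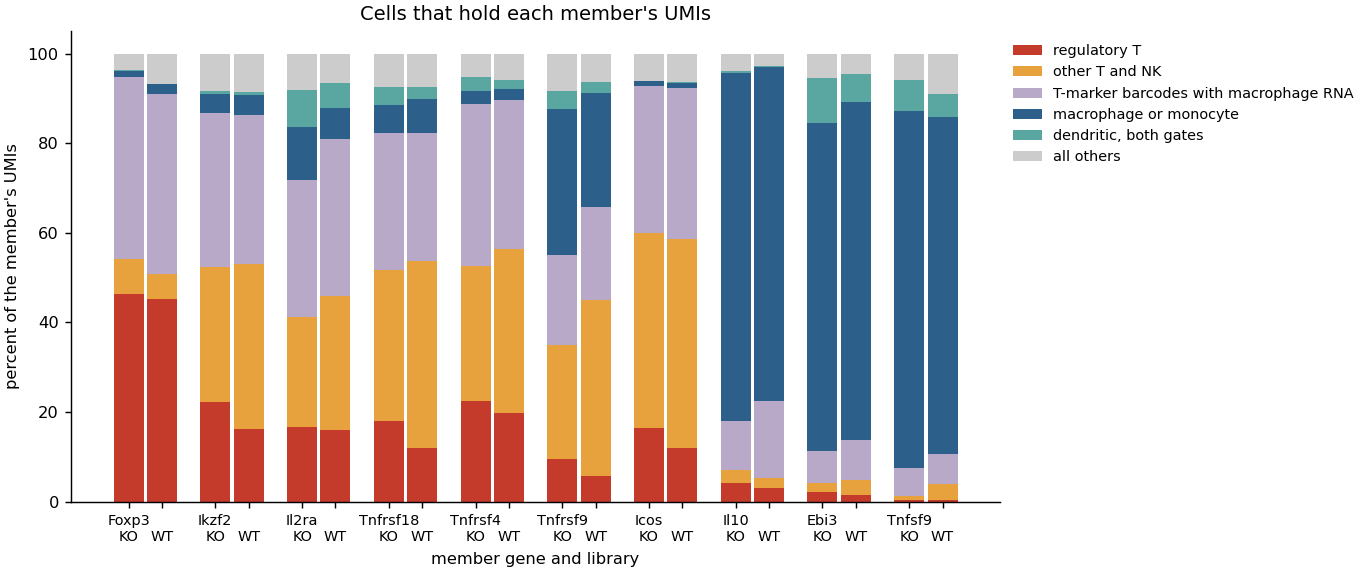
Share of each member's UMIs by the cells that hold them, in percent, with the library labelled KO left of the WT library for each gene. Colours are sets of gated cells, stacked to 100%. Foxp3 lies mostly in T cell barcodes, and Il10, Ebi3 and Tnfsf9 lie mostly in macrophages in both libraries.

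Set against conventional CD4 T cells, 3 of the 9 members not used by the gate were at least 2 times higher in regulatory T cells in both libraries, against 1.28% of 8540 genes. They were Ikzf2, at 4.34 times in the library labelled KO and 3.85 times in the WT library, Il10, at 3.29 (KO) and 3.39 (WT) times, and Il2ra, at 2.596 (KO) and 2.470 (WT) times. Tnfrsf18, Tnfrsf4 and Tnfrsf9 missed this mark narrowly in 1 library each, with Tnfrsf18 at 2.10 (KO) and 1.97 (WT) times, Tnfrsf4 at 1.97 (KO) and 2.37 (WT) times and Tnfrsf9 at 3.01 (KO) and 1.92 (WT) times. The count was 1 without the limit on macrophage UMIs and 5 with at least 2 Foxp3 UMIs. Il2ra fell below 2 times in the library labelled KO, at a log2 ratio of 0.41, with the gate by Cd4 and Ctla4, and at 0.91 where T marker UMIs had to be over 4 times the macrophage UMIs. The gate by Cd4 and Ctla4 leaves only 11 KO and 13 WT conventional CD4 T cells to compare with. Those KO cells held 11 Il2ra UMIs (300 CPM, 150 to 536). Without the macrophage limit Il2ra stood at 0.98 and Il10 at 0.63 in the WT library, and Il10 at 0.92 in the library labelled KO after thinning, all below the mark of log2 1.00. Ikzf2 stayed past it in both libraries under every setting run. Icos stood at 1.35 (KO) and 1.22 (WT) times, and Ebi3 at 2.01 (KO) and 0.81 (WT) times. Whether some conventional CD4 T cells were regulatory T cells with no Foxp3 UMI was not tested. A gate by Cd4 and Ctla4 instead of Foxp3 found a Foxp3 UMI in 53 of 123 KO and 42 of 108 WT cells.

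More members passed over the other cell groups than over conventional CD4 T cells. Over CD8 T cells, 7 of 9 members were at least 2 times higher in both libraries, against 3.41% of 11068 genes, and Tnfrsf9 was the receptor that was not, at 1.81 times in the library labelled KO and 1.48 times in the WT library. The ligand Tnfsf9 did not pass either. Over NK cells, 8 of 9 passed, all but Tnfsf9, against 8.95% of genes, with Ikzf2 at 9.66 (KO) and 14.3 (WT) times and Tnfrsf9 at 2.24 (KO) and 2.19 (WT) times. Over macrophages 7 of 9 passed, against 7.96% of genes, and the exceptions were Ebi3, at 2.05 (KO) and 1.91 (WT) times, and Tnfsf9, at 0.31 (KO) and 0.30 (WT) times. The same count of 7 passed over dendritic cells (10.7% of genes) and over mature dendritic cells (16.4% of genes), where Ebi3 and Tnfsf9 were again the members below the mark.

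Between the libraries, Il10 had the largest ratio in regulatory T cells among members with at least 20 UMIs. It lost this place with at least 2 Foxp3 UMIs, where T marker UMIs had to be over 4 times the macrophage UMIs, and where the library labelled KO was limited to female-type cells. It also lost it without the limit on macrophage UMIs, where Tnfsf9 had enough UMIs to be compared and a larger ratio. Differences are given as log2 of the level in the library labelled KO over that in the WT library after adding 5 CPM to both, and a gene counts as different past 1.5 times in UMI sums of at least 20. Of 9 members with that many UMIs, 1 was higher in the library labelled KO, against 7.16% of 6853 genes, and 0 were lower, against 11.9%. The median of the 9 was -0.21 and that of all genes -0.08. The 9 include Foxp3, of which the gate asked for at least 1 UMI in every cell, so its ratio is in part set by the gate. Single-library values of this kind compare these libraries and not the genotypes.

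Il10 in regulatory T cells was higher in the library labelled KO, with a log2 ratio of 0.96 (0.56 to 1.37) from 138 UMIs in the library labelled KO and 74 UMIs in the WT library. The molecules were concentrated in few cells: 24 of 87 KO cells (27.6%) and 14 of 112 WT cells (12.5%) had any, and a single cell held 32 of the 138 KO and 34 of the 74 WT UMIs. In cells thinned to 1000 UMIs the shares with a UMI were 16.1% in the library labelled KO and 5.36% in the WT library, against 0.769% (KO) and 0% (WT) in fibroblasts. By sex call, male-type regulatory T cells of the library labelled KO had 566 CPM and female-type ones 163 CPM, against 144 CPM in male-type WT cells. The log2 ratio was 0.53 with at least 2 Foxp3 UMIs, 0.29 where the library labelled KO was limited to female-type cells, 0.22 where T marker UMIs had to be over 4 times the macrophage UMIs, and 1.43 without the cell with the most Il10 UMIs in each library. In the first 3 of these settings Il10 no longer passed 1.5 times. The part of macrophage RNA in the Il10 of regulatory T cells was not tested.

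In the main setting the other members with at least 20 UMIs differed by less than 1.5 times between the libraries in regulatory T cells. Ikzf2 was lower in the library labelled KO with a log2 ratio of -0.46 (-0.55 to -0.37), Tnfrsf4 with -0.47 (-0.64 to -0.32) and Il2ra with -0.48 (-0.67 to -0.29). A single cell of the library labelled KO held 51 of its 383 Il2ra UMIs. In cells thinned to 1000 UMIs the ratios were -0.29 for Ikzf2, -0.43 for Tnfrsf4 and -0.03 for Il2ra. Over all settings Il2ra ran from -0.87 to -0.03. It passed 1.5 times lower at -0.87 where T marker UMIs had to be over 4 times the macrophage UMIs, at -0.76 with the gate by Cd4 and Ctla4, at -0.68 where the library labelled KO was limited to female-type cells, and at -0.59 without the cell with the most UMIs of the gene. By sex call, Il2ra had 912 CPM in male-type and 631 CPM in female-type KO cells, against 1021 CPM in male-type WT cells. Tnfrsf18 stood at -0.24, Icos at -0.21, Tnfrsf9 at -0.05, Foxp3, on which the cells were gated, at -0.03 and Ebi3 at 0.04, and the intervals of the last 3 include 0. By sex call, Ebi3 had 27.6 CPM (7.53 to 70.7, from 4 UMIs) in male-type and 106 CPM (67.9 to 158) in female-type KO cells. Male-type WT cells had 62.7 CPM (42.6 to 88.9), and all these intervals overlapped. The ratio of Ebi3 was -1.05 in male-type cells alone, 0.79 with the library labelled KO limited to female-type cells and -1.06 with the gate by Cd4 and Ctla4, all past 1.5 times. Tnfsf9 had too few UMIs to be compared in these cells.

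**Figure D5:**
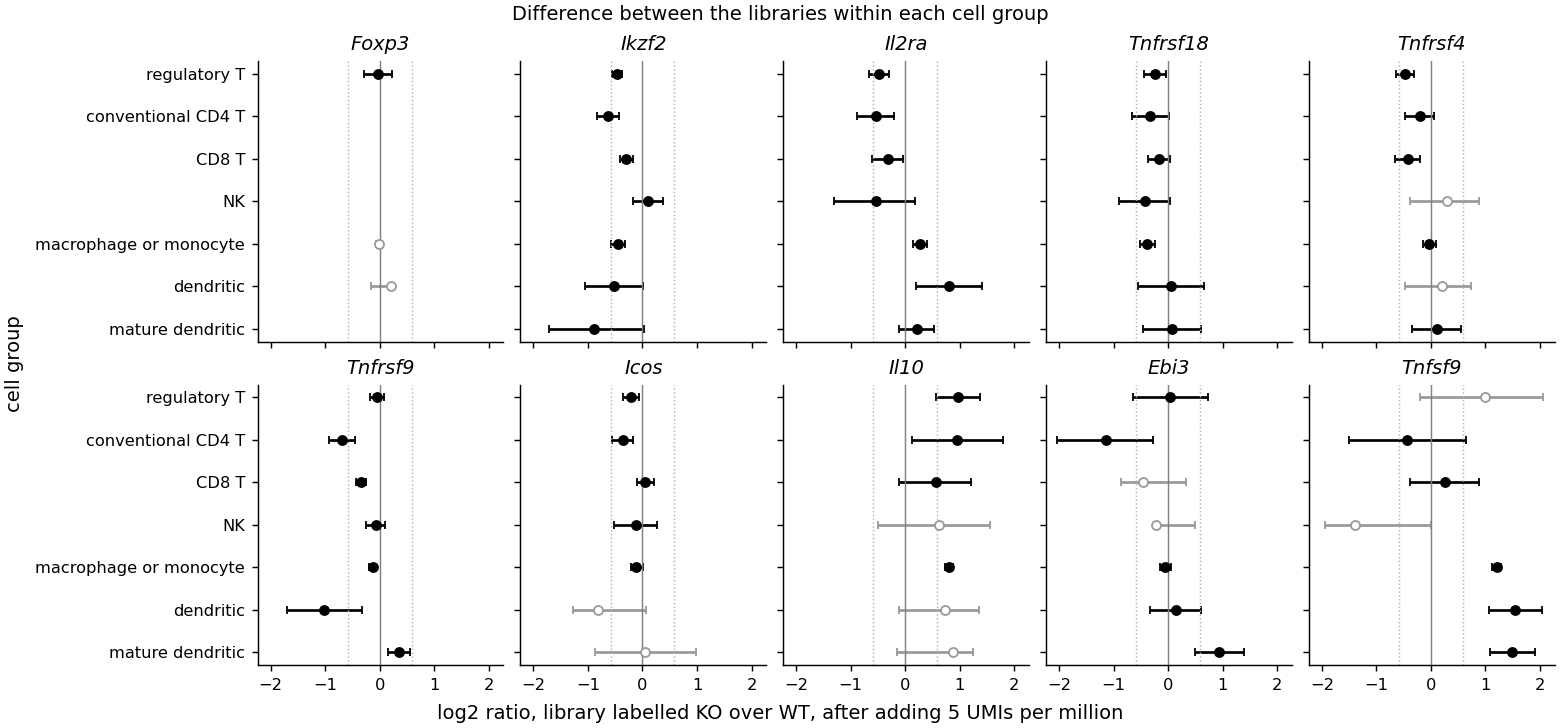
Log2 ratio of the library labelled KO over the WT library by member and cell group, after adding 5 CPM to both. Bars are exact counting intervals, dotted lines mark 1.5 times, and open grey points have fewer than 20 UMIs in all. Tnfsf9 lies right of the upper line in macrophages, dendritic and mature dendritic cells, and Il10 in regulatory T cells, conventional CD4 T cells and macrophages.

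In conventional CD4 T cells, 1 of 9 members was past 1.5 times higher in the library labelled KO (10.8% of 6115 genes) and 3 were lower (11.5%). Il10 had the same direction as in regulatory T cells, with 0.95 from 37 (KO) and 15 (WT) UMIs. Ebi3 was lower at -1.15 (-2.03 to -0.27) from 14 (KO) and 28 (WT) UMIs, Tnfrsf9 at -0.69 (-0.92 to -0.46) and Ikzf2 at -0.63 (-0.84 to -0.43). Of these calls, Tnfrsf9 and Ikzf2 ended in male-type cells alone, at -0.33 and -0.41, and Tnfrsf9 also without the macrophage limit, at -0.40. Ikzf2 was below 1.5 times in 7 other settings as well, down to -0.28 after thinning. Il10 ended at 0.30 with female-type KO cells, at 0.36 without the macrophage limit and at 0.39 where T marker UMIs had to be over 4 times the macrophage UMIs. Ebi3 stayed past the mark in every setting run, and Il2ra, at -0.54, passed it lower in 5 settings and higher, at 1.14, with the gate by Cd4 and Ctla4.

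In CD8 T cells 0 of 8 members passed in either direction (4.08% of genes higher and 4.06% lower), although the intervals of Ikzf2, Il2ra, Tnfrsf4 and Tnfrsf9 all lay below 0, at -0.30, -0.32, -0.43 and -0.34. Ikzf2 in CD8 T cells differed by sex call, at 397 CPM in male-type and 761 CPM in female-type KO cells, against 758 CPM in male-type WT cells, and its ratio in male-type cells alone was -0.93, past 1.5 times. Tnfrsf4 in these cells passed after thinning, at -1.20. Il10 passed in 4 settings, from -0.79 in male-type cells alone, on 0 (KO) and 12 (WT) UMIs, to 1.37 after thinning. Tnfsf9 passed in 3, up to 1.10 without the macrophage limit. In NK cells 0 of 5 passed (5.29% higher and 10.2% lower). There Ikzf2 had 619 CPM in the 14 male-type and 214 CPM in the 35 female-type KO cells, against 321 CPM in male-type WT cells, and a ratio of 0.94 in male-type cells alone. Il2ra in NK cells passed lower in 4 settings, down to -2.16 in male-type cells alone, Tnfrsf18 in 2 and Icos in 1, after thinning. The value of -2.16 rests on 1 UMI in the male-type KO cells, whose interval (0.22 to 48.6 CPM) overlapped that of male-type WT cells (43.3 to 72.2 CPM). Gamma delta T cells, with 21 KO and 65 WT cells, had 2 of 5 members past 1.5 times higher in the library labelled KO (11.6% of 3629 genes) and 1 lower (18.4%). Il2ra was higher (1.02, 0.50 to 1.53) and Icos lower (-1.17, -1.63 to -0.73). Tnfrsf18 stood at 0.72 on 15 (KO) and 19 (WT) UMIs with an interval that includes 0, and at 0.12 without the cell with the most UMIs of the gene.

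The ligand Tnfsf9 was higher in the library labelled KO in antigen-presenting cells. In macrophages 2 of 9 members were higher in the library labelled KO, against 1.07% of 16583 genes, and 0 were lower, against 0.585%. These counts depend on the 5 CPM added, since Ikzf2 had a log2 ratio of -0.45 (-0.58 to -0.33) and Tnfrsf18 -0.38 (-0.51 to -0.24). With 1 CPM added instead, both passed the mark lower, at -0.61 and -0.68. Ikzf2 also passed it lower after thinning, at -0.87, and in male-type cells alone, at -0.66. Il2ra, at 0.27, passed it higher in male-type cells alone, at 0.71. Tnfsf9 had a log2 ratio of 1.20 (1.12 to 1.28) from 2889 UMIs in 3414 cells and 1514 UMIs in 5205 cells. A UMI was present in 34.4% of macrophages of the library labelled KO and 19.1% of those of the WT library, and after thinning to 1000 UMIs in 6.66% (KO) and 2.57% (WT). In fibroblasts, thinned in the same way, the shares were 2.31% (KO) and 2.49% (WT), so the WT macrophage share was near that of fibroblasts. Fibroblasts were not the lowest group for Tnfsf9, since WT CD8 T cells had 9.04 CPM (6.26 to 12.6) and a thinned share of 0.756%. By sex call, Tnfsf9 had 72.0 CPM in male-type and 79.2 CPM in female-type macrophages of the library labelled KO, against 29.3 CPM in male-type WT macrophages.

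Tnfsf9 was higher in the library labelled KO in both dendritic groups as well. Dendritic cells gave 1.55 (1.07 to 2.03) from 107 (KO) and 38 (WT) UMIs and mature dendritic cells 1.49 (1.09 to 1.90) from 148 (KO) and 66 (WT) UMIs. T cell barcodes with macrophage RNA carried the same direction, at 1.44 in those with Foxp3. In fibroblasts the ratio was -0.48 (-0.90 to -0.07). Across all settings tried the Tnfsf9 ratio stayed between 0.93 and 1.31 in macrophages, 1.18 and 1.69 in dendritic cells and 1.21 and 2.20 in mature dendritic cells.

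Il10 was the other member that was higher in macrophages of the library labelled KO, with a log2 ratio of 0.80 (0.72 to 0.88), which was 0.55 and below 1.5 times after thinning. It stood at 73.3 CPM in male-type and 63.6 CPM in female-type macrophages of that library, against 35.3 CPM in male-type WT macrophages. The macrophage marker list summed lower in the library labelled KO, as given above, and the mix of macrophage states behind these sums was not tested.

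In dendritic cells, besides Tnfsf9, Il2ra was past the mark at 0.81 (0.20 to 1.41), so that 2 of 6 members were higher (4.56% of genes) and 1 lower, Tnfrsf9 at -1.03 (4.96%). Both rest on 1 cell each, since 25 of the 42 Il2ra UMIs of the library labelled KO and 32 of the 37 Tnfrsf9 UMIs of the WT library came from a single cell, and without the cell with the most UMIs of the gene in each library the ratios were 0.29 and 0.43. By sex call, Il2ra had 81.2 CPM in male-type and 6.40 CPM in female-type KO dendritic cells, against 17.5 CPM in male-type WT ones. In mature dendritic cells 2 of 7 members were higher (6.62% of genes) and 1 lower (7.67%). Ebi3, which mature dendritic cells use for IL-27, stood at 0.94 (0.49 to 1.38) from 95 (KO) and 63 (WT) UMIs, and Ikzf2 at -0.89 from 7 (KO) and 22 (WT) UMIs with an interval that includes 0. Weighting cells alike gave 0.47 for Ebi3, below 1.5 times. Ikzf2 was below 1.5 times in 6 settings, with values from -0.48 to 0.02.

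Other genes of these pathways were counted in regulatory T cells from 7 lists. Of 25 other regulatory T cell genes with enough UMIs, 1 was past 1.5 times higher in the library labelled KO and 2 were lower, with a list median of -0.09 beside -0.08 for all genes. The one that was higher was Nt5e (CD73, an ectoenzyme that makes adenosine), at 449 CPM in the library labelled KO and 263 CPM in the WT library. Ikzf4 (Eos, a FOXP3 partner) was lower, at 76.1 (KO) and 165 (WT) CPM, as was the chemokine receptor Ccr4, at 20.9 (KO) and 39.4 (WT) CPM. Ctla4, Maf, Nfkb1, Stat3 and Nfkbia, the genes of these lists with the highest CPM, all stayed within 1.5 times.

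Of 6 other TNF receptor family genes 0 were higher and 1 lower, Tnfrsf8 (CD30) at 55.2 (KO) and 93.0 (WT) CPM, and of 5 other ligands 0 passed in either direction. Of 15 genes of TNF receptor signalling 2 were higher and 1 lower: Birc3, a ubiquitin ligase of these receptors, at 295 (KO) and 188 (WT) CPM, Tnfaip3 (A20), an inhibitor of NF-kappaB, at 797 (KO) and 530 (WT) CPM, and Nfkb2 at 60.9 (KO) and 111 (WT) CPM. On the IL-2 axis 0 of 10 were higher and 2 lower, the kinase Jak3 at 26.6 (KO) and 53.7 (WT) CPM and the inhibitor Socs1 at 34.2 (KO) and 80.5 (WT) CPM. On the IL-10, IL-27 and IL-35 axis 2 of 8 were higher, the receptor chains Il27ra at 76.1 (KO) and 37.6 (WT) CPM and Il12rb2 at 110 (KO) and 69.8 (WT) CPM, and 0 were lower. Among 7 genes of B7 and CD28 costimulation 1 was higher, the adhesion receptor Cd226 at 72.3 (KO) and 23.3 (WT) CPM, and 0 were lower. These shares of higher and lower genes are to be read beside the 7.16% higher and 11.9% lower among all genes.

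The genes whose level followed each member most closely over cell groups were found from Pearson's r over 24 points, the groups with at least 30 cells in each library, among 16328 genes. The points share library and depth, so r is a description. Several of the groups were gated by the presence or absence of Foxp3, so the pattern of Foxp3 over the points is in part set by the gates. Foxp3 was followed most closely by Ky (0.94), Pigz and Ankrd55, and Ikzf2 by Arnt2 (0.97), Hacd3 and Icos. For Il2ra they were Peli1 (0.95), Tnfrsf18 and Zc3h12d, and for Tnfrsf18 Ltb (0.95), Kdm2b and Il2ra. For Tnfrsf4 they were A430093F15Rik (0.96), Slamf1 and Zc3h12d, and for Tnfrsf9 AW112010 (0.93), Rasgrp1 and Stat3. Icos went with Cd247 (0.99), Cd2 and Ctla4. The cytokine genes went with Snx18 (0.91), Rapsn and Ldhb for Il10 and with Rab11fip1 (0.94), Gm45266 and Jak2 for Ebi3. The ligand gene Tnfsf9 had the lowest likeness, to Atp6v0a1 (0.87), Spred1 and Sowahc.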

How the data were processed

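Single-cell RNA libraries of mouse colon, 1 labelled KO and 1 labelled WT, were analysed from the UMI counts per gene and barcode deposited by the authors. Cell Ranger 8.0.1 made them, per the file headers, and mm10 and Seurat 3 are named per the submitters' processing notes. The labels' protocol describes a microwell chip. Coordinates come from GENCODE M21, which holds 52081 of the 55357 features.

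Barcodes were kept with at least 500 UMIs, 200 genes and at most 25% mitochondrial UMIs, which left 5513 of 6573 in the library labelled KO and 8800 of 8800 in the WT library. Scrublet (scanpy 1.11.5) called 1 (KO) and 0 (WT) doublets with its automatic threshold. Instead, all barcodes at or above the score that bounds the top 5% in each library were removed. With tied scores these were 319 (KO) and 457 (WT) barcodes, somewhat more than 5%. Totals over all barcodes were 62465176 (KO) and 85367638 (WT) UMIs. Cells were gated on marker UMIs: NK cells by 3 of 7 markers, macrophages or monocytes by 6 of 11 with fewer than 2 T markers, dendritic cells by 2 of 5, mature dendritic cells by 3 of 4, fibroblasts by 3 of 6. The gates' thresholds were set after marker counts had been seen.

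UMIs were summed per library and cell group. Intervals are 95%, exact Poisson for levels, Clopper-Pearson for shares and exact conditional binomial for ratios. A count of 0 allows up to 3 counts. No p-value is given. All 10 members are named. Genes of the pathway lists are named where they passed 1.5 times in regulatory T cells or were among the 5 with the highest level there, and the 3 genes most like each member were computed. The members and lists were chosen with earlier results of these data known. The ratio was tested on simulated data: of genes planted 2 times higher or lower in regulatory T cells, 87 of 100 and 84 of 100 passed 1.5 times, as did 10.2% of unchanged genes by counting error alone. In macrophages 61 of 100 and 44 of 100 passed, and 0% of unchanged genes. Counts were simulated from the summed UMIs, so the gathering of UMIs in single cells was not part of the simulation. Male-type cells had a UMI of Ddx3y, Uty, Kdm5d or Eif2s3y, female-type cells one of Xist, both-type cells both.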

Additional observations from a re-analysis of the deposited data

Results flagged for a closer look

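Ebi3 moved in opposite directions between the libraries in 2 cell groups. In mature dendritic cells its log2 ratio (the library labelled KO over the WT library) was 0.94 (0.49 to 1.38), from 95 (KO) and 63 (WT) UMIs, and in conventional CD4 T cells it was -1.15 (-2.03 to -0.27), from 14 (KO) and 28 (WT) UMIs. The difference between the groups was not tested, since there is 1 library per group. Over the settings tried the ratio stayed between 0.47 and 1.34 in mature dendritic cells and between -2.45 and -0.76 in conventional CD4 T cells. The value of -2.45 came from the gate by Cd4 and Ctla4, which left 0 Ebi3 UMIs in 11 KO cells and 1 in 13 WT cells. That is too few to be read.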

How the results depend on the processing

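No paired analysis was possible because there is 1 library per group. Of the summary values under the settings tried, 91 were as in the main setting and 15 moved. The share of T cells in the regulatory gate was 12.5% in the library labelled KO and 6.35% in the WT library with at least 2 Foxp3 UMIs, 25.7% in the library labelled KO with a gate by Cd4 and Ctla4, 14.7% for its female-type cells and 11.7% in the WT library without a limit on macrophage UMIs. Members at least 2 times higher than in conventional CD4 T cells numbered 5 with at least 2 Foxp3 UMIs and 1 without the macrophage limit. Members higher in the library labelled KO in regulatory T cells numbered 0 with at least 2 Foxp3 UMIs and 0 with T marker UMIs over 4 times the macrophage UMIs, but 2 without the macrophage limit and 2 without a minimum of UMIs. Members lower there numbered 2 under the Cd4 and Ctla4 gate and 1 each with T marker UMIs over 4 times the macrophage UMIs, in male-type cells alone and where that library was limited to female-type cells.

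Of the values of single ratios under the settings tried, 2001 were as in the main setting, 303 moved and 20 changed sign. The 20 are pairs of a setting and a ratio whose main interval excluded 0, and some ratios recur among them. Under the Cd4 and Ctla4 gate, regulatory over conventional CD4 T cells gave -0.42 in the library labelled KO and -0.21 in the WT library for Icos and 0.16 in the WT library for Tnfsf9, and Il2ra between the libraries gave 1.14 in conventional CD4 T cells, of which this gate leaves 11 and 13. Without the macrophage limit Tnfrsf18 gave 0.0051 in regulatory T cells and Icos 0.040 in conventional CD4 T cells. Thinning gave 0.0018 for Tnfrsf18 in regulatory T cells, 0.10 for Il2ra in CD8 T cells, 0.15 for Tnfrsf9 in macrophages, -0.11 for Il2ra in dendritic cells and -0.014 for Icos in regulatory over conventional CD4 T cells of the WT library. Male-type cells alone gave 0.071 for Icos in conventional CD4 T cells and 0.035 for Tnfrsf9 in macrophages, and leaving out both-type cells gave 0.00079 for Icos in regulatory T cells. Female-type cells alone in the library labelled KO gave 0.042 for Ikzf2 in CD8 T cells, -0.068 for Il2ra in macrophages and -0.88 for Il2ra in dendritic cells. Weighting cells alike gave 0.0080 for Icos in regulatory T cells and 0.0070 for Tnfrsf9 in macrophages, and Tnfrsf9 in dendritic cells gave 0.43 without the cell with the most UMIs of the gene. The female-type and cell weight settings were chosen after seeing the data, and the cause of these changes was not tested beyond each setting's own construction. With 87 and 112 regulatory T cells, Ebi3 and Tnfsf9 rest on 5 to 33 UMIs per library there.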
